A study of Homo sapiens with 12 samples.

Results

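The glutathione peroxidases GPX1, GPX3, GPX4 and GPX8, the superoxide dismutases SOD1 and SOD2, catalase (CAT) and the methionine sulfoxide reductase MSRA were followed in the human kidney line HK-2, immortalised epithelium of the proximal tubule. They were chosen as every probe set that the array's annotation assigns to these symbols, which gave 8 of 19775 annotated genes and 17 of 54675 probe sets. RNA levels were measured on Affymetrix arrays in 4 groups of 3 replicates. The groups were cultures given the agent named Kbr in the labels, at the dose called high, for 48 h, vehicle cultures at 48 h, Kbr cultures at 24 h and vehicle cultures at 24 h. The vehicle cultures are called control below. All 4 groups are of this 1 line, were seeded 24 h before exposure and grew in medium with sodium selenite, per the labels' protocols. The labels call the replicates biological but do not say what separates them, so each p-value measures the spread between these arrays. The concentration behind the word high and the nature of the vehicle are not given in the sources used here.

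Superoxide dismutases turn superoxide into hydrogen peroxide, and catalase and the glutathione peroxidases remove that peroxide. GPX1, GPX3 and GPX4 take their electrons mainly from glutathione. They carry selenocysteine at the active site, so that their synthesis depends on selenium, whereas GPX8 has cysteine there. The proximal tubule is known as the main source of the secreted GPX3 found in blood plasma.

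Each value is a log2 GCRMA value, a microarray summary in which 1 unit is a 2-fold difference in signal. Array medians lay between 2.89 and 2.96. A gene was tested if its value exceeded 4 in at least 3 arrays, and all 8 genes passed, as did 14 of their 17 probe sets. The other 3 (215573_at for CAT, 240031_at for MSRA and 215078_at for SOD2) stayed between 2.37 and 2.96 in every array. Of 15 measured proximal tubule markers only 4 passed, and LRP2, CUBN, SLC34A1, AQP1, ANPEP, MME and GGT1 were among those that did not. The level summed over the 15 markers, on the log2 scale, was 11.90 to 12.01 in Kbr and 13.01 to 13.38 in control cultures at 48 h, and 12.41 to 12.73 in Kbr and 13.01 to 13.36 in control cultures at 24 h. The sum over 5 fibroblast markers, of which 3 passed and fell at both times, was 10.17 to 10.59 in Kbr and 12.28 to 12.34 in control cultures at 48 h. At 24 h it was 11.41 to 11.83 in Kbr and 12.37 to 12.88 in control cultures. Of 8 endothelial and leukocyte markers TEK alone passed. Control probe sets for 28S ribosomal RNA read 7.43 to 7.58 in Kbr and 7.01 to 7.11 in control arrays at 48 h, and 7.12 to 7.48 in Kbr and 6.80 to 6.91 in control arrays at 24 h. Fewer cells that express a gene and less RNA per cell cannot be told apart in such bulk RNA, and the part of these markers and of the ribosomal signal in the results was not tested.

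At 48 h the selenium-dependent peroxidases and catalase were lower and SOD1 was higher in Kbr than in control cultures. GPX3 was 2.87-fold lower, GPX1 1.83-fold, CAT 1.41-fold, GPX4 1.36-fold and GPX8, which has no selenocysteine, 1.34-fold lower, whereas SOD1 was 1.77-fold higher. These 6 of 8 genes passed an adjusted p of 0.05 at 48 h, 1 higher and 5 lower. Of all tested genes 59.6% passed at that time, 26.9% higher and 32.8% lower, so that the count of 6 stands close to the background. The CAT call at 48 h held in 16 of 24 alternative ways of processing. That of GPX8 held in 23, and those of GPX1, GPX3, GPX4 and SOD1 in all 24. The median log2 fold change of the 8 genes was -0.43, beside -0.06 over all tested genes. At 24 h only SOD1 passed, 1.35-fold higher, where 32.4% of all tested genes passed, 12.4% higher and 20.0% lower. Blocking on the replicate number let 4 of 8 genes pass at 24 h (SOD1 higher, and GPX1, GPX4 and GPX8 lower), where that fit called 48.0% of all genes. At 48 h the blocked fit called the same 6 genes of 8, and 69.4% of all genes. The median at 24 h was -0.21, beside -0.06 over all genes. The Kbr and control arrays of 5 genes did not overlap at 48 h (GPX1, GPX3, GPX4, GPX8 and SOD1), as was the case for 62.8% of all genes, and those of 3 did not at 24 h (GPX4, GPX8 and SOD1), against 51.6% of all genes.

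**Figure D1:**
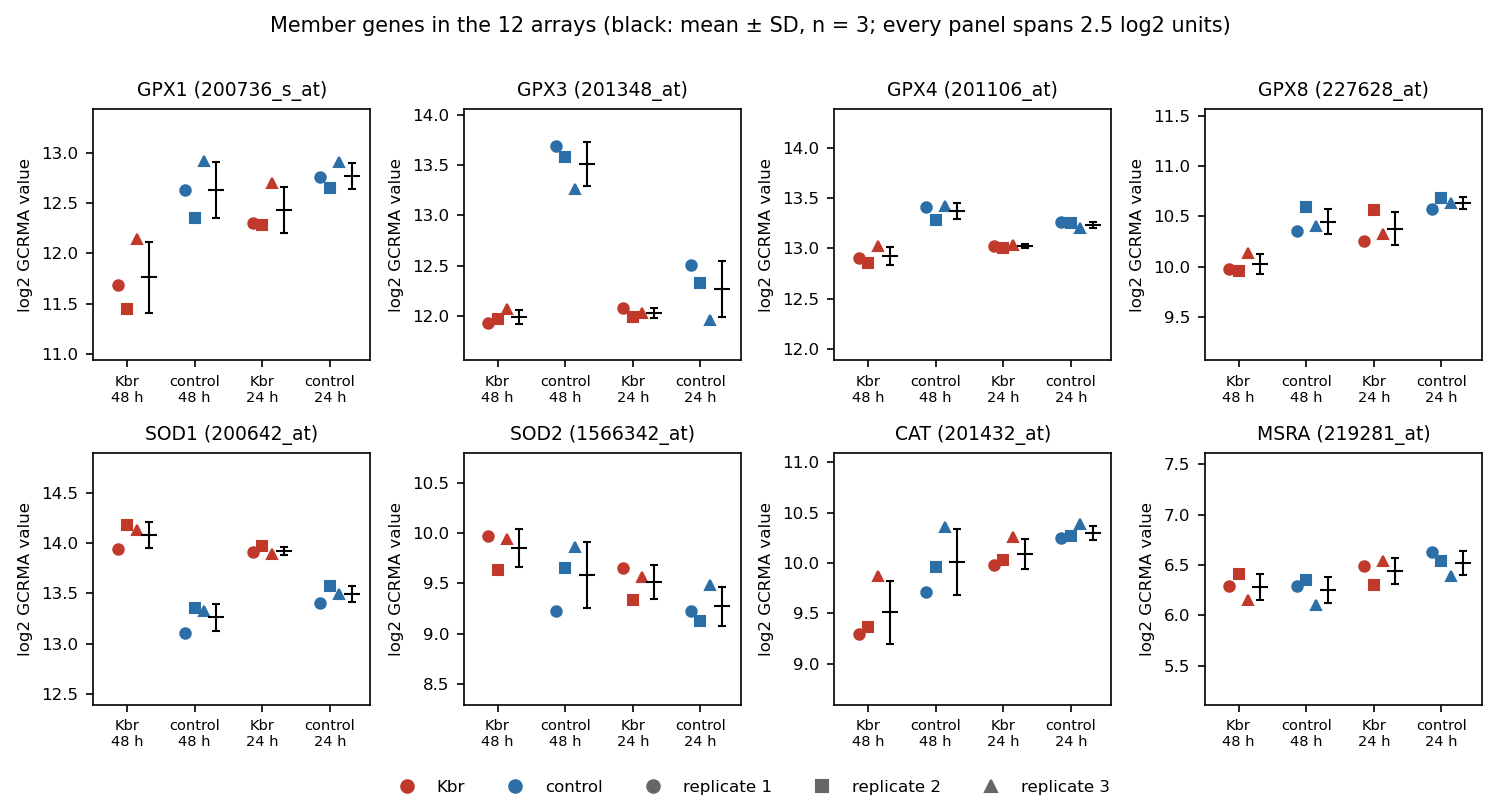
Log2 GCRMA value (vertical axis, 2.5 log2 units in every panel) of the 8 genes in each array of the 4 groups, with the marker shape giving the replicate number and the black bar the mean ± SD of 3 arrays. The 3 Kbr arrays at 48 h lie below all 3 control arrays for GPX1, GPX3, GPX4 and GPX8 and above them for SOD1, and the control arrays of GPX3 stand at 13.26 to 13.69 at 48 h, above the other 9 arrays.

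GPX1, GPX3 and CAT are shown by the 250 bases before their annotated start, so that their promoters can be set beside each other. They were called lower at 48 h, as were GPX4 and GPX8, whose windows are counted below but not printed. The sequences are from RefSeq on GRCh38.p14, 5′ to 3′ on the strand of the gene. GPX1 is at chr3:49358354-49358603 (minus strand), GPX3 at chr5:151020341-151020590 (plus strand) and CAT at chr11:34438684-34438933 (plus strand). Capitals mark the CCAAT box and the GC box GGGCGG, read on either strand, so that they also appear as ATTGG and CCGCCC.
GPX1: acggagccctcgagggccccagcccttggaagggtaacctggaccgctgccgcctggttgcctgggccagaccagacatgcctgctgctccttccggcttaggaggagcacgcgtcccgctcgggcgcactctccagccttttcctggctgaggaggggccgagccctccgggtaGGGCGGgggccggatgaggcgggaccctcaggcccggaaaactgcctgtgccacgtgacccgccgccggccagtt
GPX3: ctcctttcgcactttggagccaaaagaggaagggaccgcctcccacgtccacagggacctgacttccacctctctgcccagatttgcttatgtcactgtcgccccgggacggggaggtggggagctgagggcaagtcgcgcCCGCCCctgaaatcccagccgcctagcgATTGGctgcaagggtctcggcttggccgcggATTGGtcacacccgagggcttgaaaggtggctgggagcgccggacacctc
CAT: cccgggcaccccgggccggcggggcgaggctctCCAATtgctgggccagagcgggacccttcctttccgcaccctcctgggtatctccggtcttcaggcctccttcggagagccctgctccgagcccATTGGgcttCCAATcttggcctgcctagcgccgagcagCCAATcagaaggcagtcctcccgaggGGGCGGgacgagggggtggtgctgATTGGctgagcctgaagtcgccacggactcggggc
The CAT window holds 5 CCAAT boxes, the GPX3 window 2 and the GPX1 window 0, and each holds 1 GC box. Of the 8 genes 6 had an entry in the RefSeq promoter table, with 11 windows in all, since GPX4 has 3 listed starts and SOD2 has 4. A CCAAT box was found in at least 1 window of GPX3, GPX4, SOD2 and CAT, and a GC box in at least 1 window of each of the 6 genes except GPX8. Among all 35116 windows there, a CCAAT box was in 11240 and a GC box in 14973 (42.6%). The antioxidant response element core TGACNNNGC, present in 10.9% of all windows on either strand, was in none of the 11. A match describes these letters only, and SOD1 and MSRA are named here without a sequence.

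GPX3, the secreted plasma glutathione peroxidase, stood farthest below control of the 8 genes at 48 h. At 48 h it read 11.93, 11.97 and 12.07 in Kbr cultures, against 13.69, 13.58 and 13.26 in control cultures. At 24 h it read 12.08, 11.99 and 12.03 in Kbr cultures, against 12.51, 12.33 and 11.96 in control cultures. The groups did not overlap at 48 h, and at 24 h replicate 3 of the control lay below all 3 Kbr arrays. The log2 fold change was -1.52 ± 0.15 at 48 h (SE; 95% confidence interval -1.85 to -1.20; adjusted p = 1.08e-05, limma) and -0.23 ± 0.15 at 24 h (interval -0.56 to 0.09; adjusted p = 0.25). Its other probe set, 214091_s_at, gave -1.55 at 48 h (adjusted p = 5.43e-06 over all probe sets) and -0.22 at 24 h (adjusted p = 0.235).

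The Kbr effect on GPX3 was larger at 48 h than at 24 h, by -1.29 ± 0.21 on the log2 scale (interval -1.75 to -0.83; adjusted p = 0.0125). It was the only 1 of the 8 genes to pass this test of the difference, which 5.58% of all genes passed (3.49% of all genes with a negative difference). Both of its probe sets passed, 2 of the 14 tested, where 4.29% of all probe sets did. With the replicate block GPX1 (-0.53, adjusted p = 0.0245) and SOD1 (0.39, adjusted p = 0.0251) passed as well, where that fit called 20.2% of all genes; without the block their adjusted p-values were 0.276 and 0.123. Between the times GPX3 passed the test in the control cultures and did not in the Kbr cultures. Control cultures at 48 h stood 2.36-fold above control cultures at 24 h (log2 fold change 1.24 ± 0.15, interval 0.92 to 1.57, adjusted p = 0.00464), higher in 3 of 3 same-numbered pairs. Kbr cultures at 48 h against Kbr cultures at 24 h gave -0.05 ± 0.15 (interval -0.37 to 0.28; adjusted p = 0.873). The change in the control cultures ranked 52 from the highest among 10574 genes. It was not called when only the 2 control groups entered the fit (adjusted p = 0.0974). These contrasts share arrays: the 48 h control arrays enter the comparison with Kbr and the comparison over time.

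GPX1, the ubiquitous cytosolic and mitochondrial glutathione peroxidase, has 1 probe set, 200736_s_at. At 48 h it read 11.68, 11.45 and 12.14 in Kbr cultures, against 12.63, 12.35 and 12.92 in control cultures. After 24 h the values were 12.30, 12.28 and 12.70 in Kbr cultures, against 12.76, 12.65 and 12.91 in control cultures. The groups did not overlap at 48 h and overlapped at 24 h. Replicate 3 was the highest array of every group, and within each replicate number the Kbr array was the lower at both times. Kbr over control gave a log2 fold change of -0.87 ± 0.20 at 48 h (interval -1.31 to -0.44; adjusted p = 0.00276) and -0.35 ± 0.20 at 24 h (interval -0.78 to 0.09; adjusted p = 0.202, and 0.0135 with the replicate block).

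GPX4, which reduces lipid hydroperoxides within membranes and thereby restrains ferroptosis, a form of cell death by lipid peroxidation, was lower in every Kbr array than in any control array of its time. At 48 h probe set 201106_at read 12.90, 12.85 and 13.02 in Kbr cultures, against 13.41, 13.28 and 13.42 in control cultures. The 24 h values were 13.02, 13.00 and 13.03 in Kbr cultures, against 13.26, 13.25 and 13.20 in control cultures. The 24 h groups lay closer together than the 48 h groups. In limma the log2 fold change was -0.45 ± 0.08 at 48 h (interval -0.63 to -0.26; adjusted p = 0.000807). At 24 h it was -0.22 ± 0.08 (interval -0.40 to -0.04; adjusted p = 0.0654). That value passed with the replicate block (0.0275), and its adjusted p also came under 0.05 without Kbr 48 h replicate 3 (0.0444).

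GPX8, a peroxidase of the endoplasmic reticulum membrane, was read by 2 probe sets, of which 1 was called. At 48 h probe set 227628_at read 9.98, 9.96 and 10.14 in Kbr cultures, against 10.36, 10.59 and 10.41 in control cultures. At 24 h the arrays gave 10.26, 10.56 and 10.33 in Kbr cultures, against 10.57, 10.68 and 10.63 in control cultures. The groups did not overlap at either time, although the highest Kbr array at 24 h nearly met the lowest control array. The log2 fold change was -0.42 ± 0.11 at 48 h (interval -0.66 to -0.19; adjusted p = 0.00527) and -0.24 ± 0.11 at 24 h (adjusted p = 0.104, and 0.0455 with the replicate block). The other probe set, 228141_at, gave -0.06 at 48 h (adjusted p = 0.813) and 0.35 at 24 h (adjusted p = 0.201). With both probe sets averaged the change at 48 h was -0.24 (adjusted p = 0.123) and that at 24 h was 0.06, so the GPX8 call rests on 227628_at.

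Catalase, the peroxisomal enzyme that splits hydrogen peroxide into water and oxygen, was read by probe set 201432_at. At 48 h it read 9.30, 9.37 and 9.87 in Kbr cultures, against 9.71, 9.96 and 10.36 in control cultures. After 24 h it read 9.98, 10.03 and 10.26 in Kbr cultures, against 10.25, 10.27 and 10.39 in control cultures. The groups overlapped at both times, while the Kbr array was the lower of each same-numbered pair. Kbr over control gave a log2 fold change of -0.50 ± 0.18 at 48 h (interval -0.90 to -0.09; adjusted p = 0.0361) and -0.21 ± 0.18 at 24 h (adjusted p = 0.402). Its other probe set over the filter, 211922_s_at, gave -0.47 at 48 h (adjusted p = 0.121, and 0.0168 with the replicate block). The CAT call at 48 h was lost without Kbr 48 h replicate 1 (-0.39, adjusted p = 0.124), Kbr 48 h replicate 2 (-0.42, 0.113), control 48 h replicate 2 (-0.52, 0.061) or control 48 h replicate 3 (-0.32, 0.145). Tested over all probe sets, 201432_at was called at 48 h in 3 of 12 fits that left out 1 array.

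SOD1, the copper and zinc superoxide dismutase of the cytosol, was the only 1 of the 8 genes called at both times, and the only 1 called higher. At 48 h probe set 200642_at read 13.94, 14.18 and 14.13 in Kbr cultures, against 13.11, 13.35 and 13.32 in control cultures. At 24 h it read 13.91, 13.97 and 13.89 in Kbr cultures, against 13.40, 13.57 and 13.49 in control cultures. The groups did not overlap at either time, and the 3 same-numbered pairs differed by 0.84, 0.83 and 0.81 at 48 h. In limma the log2 fold change was 0.83 ± 0.10 at 48 h (interval 0.60 to 1.05; adjusted p = 4.63e-05) and 0.43 ± 0.10 at 24 h (interval 0.21 to 0.66; adjusted p = 0.00815). Control cultures at 48 h against 24 h differed by -0.23 ± 0.10 (adjusted p = 0.209, and 0.0431 with the replicate block).

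**Figure D2:**
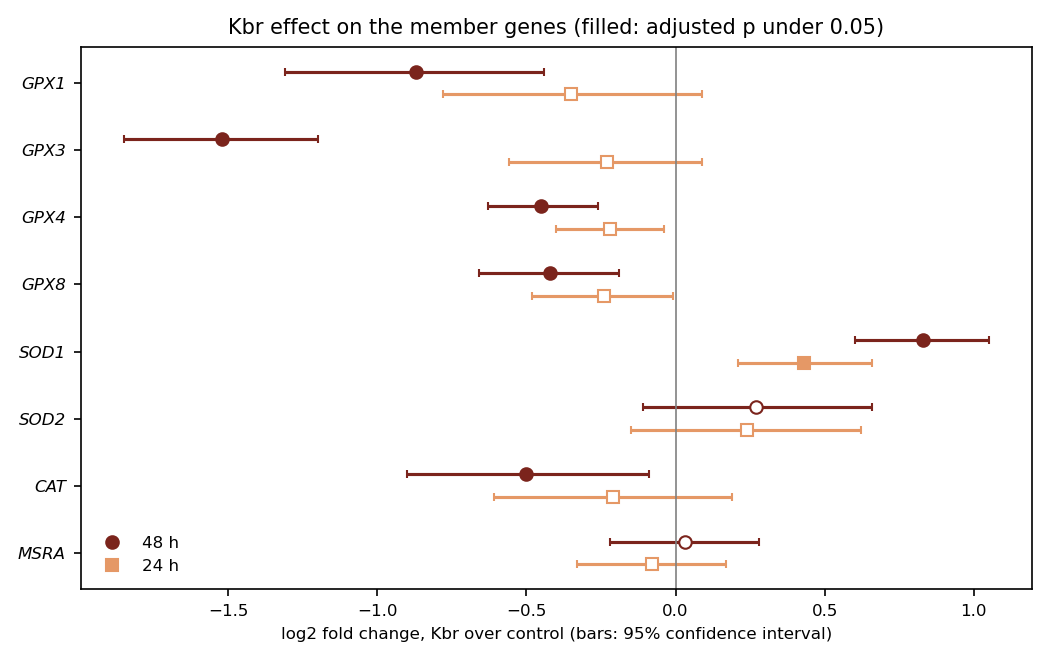
Log2 fold change of Kbr over control (horizontal axis) for the 8 genes at 48 h (dark circles) and 24 h (light squares), with bars for the 95% confidence interval and filled symbols for an adjusted p under 0.05. GPX3 lies farthest from 0 at 48 h, at -1.52, and SOD1 is the only filled symbol on the positive side at either time.

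SOD2, the manganese superoxide dismutase of mitochondria, did not pass at either time on the 1 probe set annotated to it alone. At 48 h 1566342_at read 9.97, 9.63 and 9.94 in Kbr cultures, against 9.22, 9.65 and 9.86 in control cultures. After 24 h the values were 9.65, 9.33 and 9.56 in Kbr cultures, against 9.22, 9.12 and 9.48 in control cultures. The groups overlapped at both times, and control replicate 1 stood apart from the other 2 control arrays at 48 h. The log2 fold change was 0.27 ± 0.17 at 48 h (interval -0.11 to 0.66; adjusted p = 0.204) and 0.24 ± 0.17 at 24 h (interval -0.15 to 0.62; adjusted p = 0.325).

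Another 4 probe sets are annotated both to SOD2 and to SOD2-OT1, a transcript that overlaps it, and whether their signal comes from SOD2 or SOD2-OT1 cannot be told apart. Of these, 3 passed the filter. At 48 h 216841_s_at read 10.03, 10.55 and 10.85 in Kbr cultures, against 8.79, 9.65 and 10.33 in control cultures, so that the groups overlapped while each same-numbered Kbr array was higher. Its log2 fold change was 0.89 ± 0.34 (adjusted p = 0.0456 over all probe sets), and it was called in 3 of 12 fits that left out 1 array, those without Kbr 48 h replicate 1, control 24 h replicate 3 or control 48 h replicate 3. Over these 12 fits it ran from 0.49, without control 48 h replicate 1 (adjusted p = 0.176), to 1.26. 215223_s_at gave 0.92 ± 0.38 at 48 h (adjusted p = 0.063, and 0.000537 with the replicate block). 221477_s_at gave 0.18 ± 0.21 at 48 h (adjusted p = 0.504). At 24 h the 3 probe sets gave 0.60, 0.54 and 0.47 in the same order, with adjusted p-values of 0.216, 0.322 and 0.124, and of 0.0428, 0.017 and 0.0155 with the block. In these 3 probe sets replicate 1 lay below the group mean in all 4 groups and replicate 3 above it. Counted by probe set, 8 of 14 passed at 48 h, 2 higher and 6 lower, where 54.6% of all tested probe sets passed, and 1 of 14 passed at 24 h, where 25.7% passed.

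**Figure D3:**
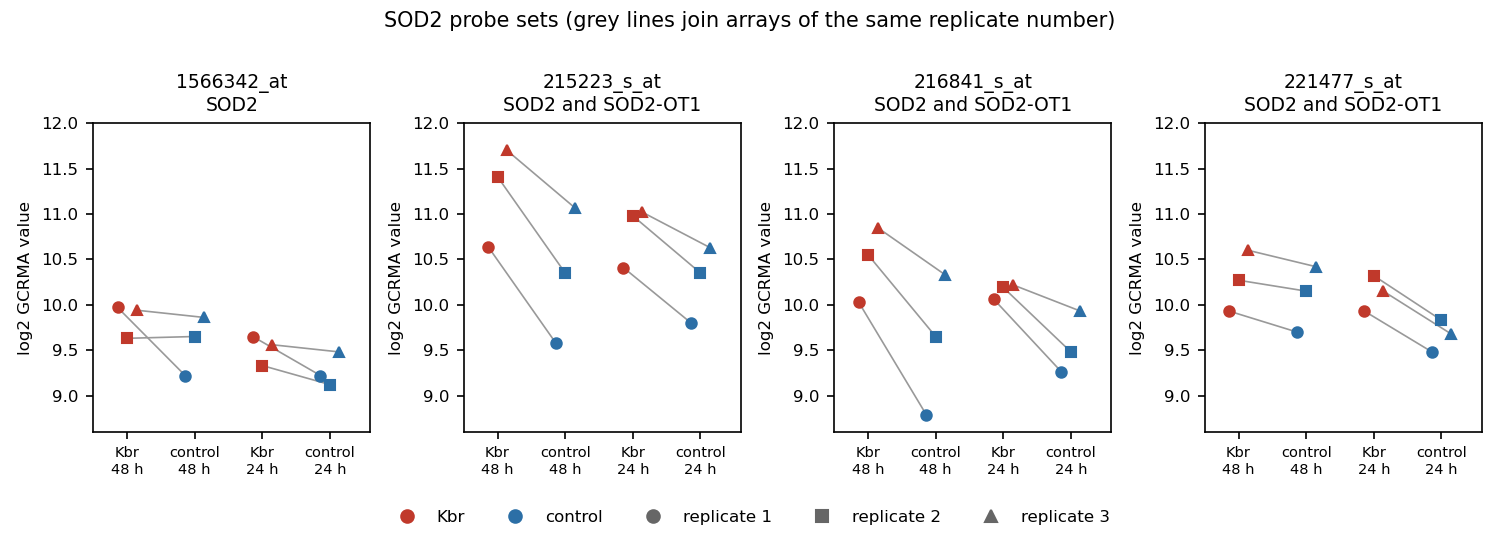
Log2 GCRMA value (vertical axis) of the 4 SOD2 probe sets over the filter in each array, with grey lines that join the Kbr and control arrays of the same replicate number at each time. In the 3 probe sets shared with SOD2-OT1 every line runs downward, from a higher Kbr array to a lower control array, and replicate 1 is the lowest array of every group; on 1566342_at the replicate 2 line at 48 h is nearly flat.

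MSRA, which reduces oxidised methionine residues in proteins, did not pass in any comparison. At 48 h 219281_at read 6.29, 6.41 and 6.15 in Kbr cultures, against 6.29, 6.35 and 6.10 in control cultures. The 24 h values were 6.49, 6.30 and 6.54 in Kbr cultures, against 6.63, 6.54 and 6.39 in control cultures. The groups overlapped at both times. Kbr over control gave a log2 fold change of 0.03 (interval -0.22 to 0.28; adjusted p = 0.822) at 48 h and -0.08 (interval -0.33 to 0.17; adjusted p = 0.63) at 24 h, and the intervals leave out changes beyond those bounds.

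Over time within the Kbr cultures, 2 of 8 genes passed and both were lower at 48 h, where 17.1% of all genes passed, 10.0% lower. GPX1 changed by -0.67 ± 0.20 (adjusted p = 0.0403) and GPX8 by -0.35 ± 0.11 (adjusted p = 0.0431), and neither gene's 48 h arrays overlapped its 24 h arrays. The times did not overlap in 3 of the 8 genes, these and CAT, beside 34.5% of all genes. Both calls were lost in each fit without a Kbr 24 h or control 24 h array, and without Kbr 48 h replicate 1 or 2. The GPX1 call was also lost without control 48 h replicate 1 and the GPX8 call without control 48 h replicate 3, and the adjusted p reached 0.156 for GPX1 and 0.146 for GPX8. CAT, at -0.58 ± 0.18 (adjusted p = 0.0518), passed with the replicate block (0.00393), which called 3 of the 8 and 33.8% of all genes. Its adjusted p also came under 0.05 without Kbr 48 h replicate 3 (-0.76, 0.00988), control 48 h replicate 1 (0.042) or control 48 h replicate 3 (0.0359). In the control cultures GPX3 alone passed, 1 of 8 and higher at 48 h, where 4.03% of all genes passed, 1.73% higher. With the block SOD1 did too, where that fit called 20.8% of all genes. The 48 h and 24 h control arrays did not overlap for 4 of the 8 genes (GPX3, GPX4, SOD1 and MSRA), beside 26.9% of all genes. By probe set 2 of 14 passed in the control cultures, both of GPX3, where 1.78% of all probe sets passed, and 1 of 14 in the Kbr cultures, where 13.2% passed.

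Genes that act beside the 8 enzymes were read from lists of pathway members, for which the share called is set against the 59.6% and 32.4% of all genes. Here and below, rose and fell mean higher and lower in Kbr than in control cultures at the same time. The list of other peroxidases, dismutases and methionine sulfoxide reductases had 7 measured genes, of which 3 were tested. These were the methionine sulfoxide reductases MSRB1, MSRB2 and MSRB3, so no peroxidase or dismutase of that list was tested. Of the 3, 2 fell at 48 h (66.7% called), and 2 fell and 1 rose at 24 h (100.0%). Mitochondrial MSRB2, which reduces the other stereoisomer of oxidised methionine, changed by -1.36 at 48 h (adjusted p = 9.32e-06) and by -0.72 at 24 h (0.00215). MSRB3 changed by -1.16 at 48 h (0.000662) and by -0.69 at 24 h (0.0278); the 24 h call was lost without Kbr 24 h replicate 2 (-0.48), control 24 h replicate 1 (-0.60) or control 24 h replicate 3 (-0.65), and with no filter on low values (adjusted p = 0.0728).

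Among 14 other tested selenoproteins 5 rose and 2 fell at 48 h (50.0% called), and 4 rose and 2 fell at 24 h (42.9%). Thioredoxin reductase TXNRD1, which keeps thioredoxin reduced, read 14.14, 14.13 and 13.79 in Kbr cultures at 48 h, against 11.84, 11.98 and 11.74 in control cultures. It rose by 2.17 ± 0.12 at 48 h (adjusted p = 7.49e-07) and by 1.76 ± 0.12 at 24 h (adjusted p = 1.68e-05). SELENON, a selenoprotein of the endoplasmic reticulum, changed by -1.62 at 48 h (0.000486) and by -0.96 at 24 h (0.0226). The selenoproteins therefore moved in both directions, with TXNRD1 higher and GPX1, GPX3 and GPX4 lower at 48 h. The 24 h call of SELENON was lost without Kbr 24 h replicate 2 (-0.96, adjusted p = 0.0572), Kbr 24 h replicate 3 (-0.66, 0.0799) or control 24 h replicate 1 (-0.79, 0.0916), with only the groups compared (0.055) and with no filter on low values (0.0673).

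Of 10 genes for selenocysteine synthesis and insertion, 2 rose and 3 fell at 48 h (50.0% called, median -0.34). At 24 h 1 rose and 2 fell (30.0%, median 0.00). Both shares lay below those of all tested genes. SECISBP2, the protein that binds the selenocysteine insertion element of selenoprotein messages, changed by -1.95 at 48 h (adjusted p = 7.12e-06) and by -1.28 at 24 h (0.000629). PSTK, the kinase that prepares the selenocysteine transfer RNA, rose by 1.82 at 48 h (2.26e-06) and by 1.13 at 24 h (0.000275).

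The list of peroxiredoxins and thiol recycling held 15 tested genes, of which the peroxiredoxins reduce peroxides by cysteine chemistry. Of the 15, 8 rose and 4 fell at 48 h (80.0% called, median 0.36). At 24 h 6 rose and 2 fell (53.3%, median 0.18). Among its peroxiredoxins at 48 h, PRDX1 (0.64) and PRDX6 (0.36) rose, PRDX2 (-1.28) and PRDX3 (-0.32) fell and PRDX4 (-0.08) was not called. Only PRDX2 was called among them at 24 h, lower (-0.44, adjusted p = 0.0174 in limma). TXNRD1 is also on this list, and SRXN1, which repairs overoxidised peroxiredoxins, rose by 1.70 at 48 h (adjusted p = 3e-05) and by 1.62 at 24 h (0.000284). Of 11 tested genes of peroxisome biogenesis, the organelle that holds catalase, 1 rose and 5 fell at 48 h (54.5%; median -0.70), and 1 rose and 2 fell at 24 h (27.3%; median -0.25). At 48 h the import receptor PEX7 changed by -0.85 (0.000505). PEX6 is counted among the genes that fell at 48 h. It read 3.13, 3.16 and 3.10 in Kbr cultures at 48 h, against 4.81, 4.01 and 3.92 in control cultures. At 24 h it read 3.49, 2.93 and 3.53 in Kbr cultures, against 5.35, 3.65 and 3.66 in control cultures. Every Kbr array lay below 4, the level of the filter, so PEX6 passed it through control arrays alone and no fold is given. The PEX6 call was lost with no filter on low values (adjusted p = 0.0988) and with 32 added on the linear scale (0.11). It was also lost when any 1 of the 3 Kbr 48 h arrays or control 48 h replicate 1 (0.132) was left out. PEX3 changed by -0.82 at 48 h (0.00111) and by -0.62 at 24 h (0.0131), and PEX14 by 0.81 at 48 h (0.00027) and by 0.50 at 24 h (0.013). Both 24 h calls were lost without Kbr 24 h replicate 1 (adjusted p = 0.0519 and 0.0501).

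Of 9 genes that supply copper or manganese, the metals of SOD1 and SOD2, 3 rose and 3 fell at 48 h (66.7%, median -0.15). At 24 h 2 rose and 2 fell (44.4%, median 0.02). The copper importer SLC31A1 rose by 1.38 at 48 h (adjusted p = 7.65e-06) and by 0.61 at 24 h (0.00463). SLC39A8, a manganese and zinc importer, changed by -1.84 at 48 h (7.51e-07) and by -0.78 at 24 h (0.00057).

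Of 10 oxidases that make superoxide or hydrogen peroxide, 3 rose and 6 fell at 48 h (90.0% called; median -0.65), and 1 rose and 3 fell at 24 h (40.0%; median -0.28). Monoamine oxidase MAOA read 6.34, 6.82 and 7.32 in Kbr cultures at 48 h, against 10.03, 10.35 and 10.12 in control cultures. It changed by -3.34 ± 0.23 at 48 h (adjusted p = 1.49e-06) and by -1.64 ± 0.23 at 24 h (0.000606). Spermine oxidase SMOX rose by 1.71 at 48 h (0.00064) and by 1.04 at 24 h (0.0237), but another probe set of the gene gave 0.21 at both times (0.166 and 0.209). Its 24 h call was also lost without Kbr 24 h replicate 1 (0.87), Kbr 24 h replicate 3 (1.03) or control 24 h replicate 2 (0.85), and with no filter on low values (adjusted p = 0.0715).

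Of 14 lipid peroxidation and ferroptosis genes, 7 rose and 2 fell at 48 h (64.3%; median 0.53), and 6 rose and 2 fell at 24 h (57.1%; median 0.09). Heme oxygenase HMOX1 read 11.44, 11.26 and 11.96 in Kbr cultures at 48 h, against 7.48, 7.64 and 8.23 in control cultures. It rose by 3.77 ± 0.24 at 48 h (adjusted p = 1.13e-06) and by 3.41 ± 0.24 at 24 h (adjusted p = 1.68e-05). The lipoxygenase ALOX5 is counted among the genes that fell at both times. It read 2.79, 2.64 and 2.71 in Kbr cultures at 48 h, against 5.33, 5.78 and 6.08 in control cultures, and 2.71 in each Kbr culture at 24 h, against 4.27, 4.68 and 4.85 in control cultures. All 6 Kbr arrays lay below 4, so ALOX5 passed the filter through the control arrays alone, and no fold is given. The cystine transporter SLC7A11, which feeds glutathione synthesis, rose by 2.77 at 48 h (adjusted p = 0.00146) and by 2.07 at 24 h (0.0172). The 24 h call was lost with no filter on low values (0.0591) and without Kbr 24 h replicate 1 (1.94, adjusted p = 0.0554), Kbr 24 h replicate 2 (1.99, 0.0518) or control 24 h replicate 1 (2.00, 0.0569).

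Of 11 NF-kB responsive genes, a pathway known to induce SOD2, 2 rose and 2 fell at 48 h (36.4% called) and 0 were called at 24 h. The 2 that rose were CXCL2 (1.07, adjusted p = 0.0414 in limma) and NFKBIE (0.50, 0.0175). TNFAIP3, an inhibitor of that pathway, is counted among the genes that fell at 48 h (adjusted p = 0.0096). At 48 h it read 3.06, 2.62 and 3.91 in Kbr cultures, against 4.18, 4.66 and 4.77 in control cultures. All 3 of these Kbr arrays lay below 4, so no fold is given for 48 h. Its value at 24 h was -0.66 (0.198). The chemokine CCL2 changed by -2.75 at 48 h (0.00111) and had a value of -1.31 at 24 h (0.0841, and 0.0424 with the replicate block). Its Kbr arrays at 48 h read 3.88, 3.88 and 5.07, so that replicates 1 and 2 lay below 4. Without control 24 h replicate 3 the 24 h value was -1.70 (0.0438).

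**Figure D4:**
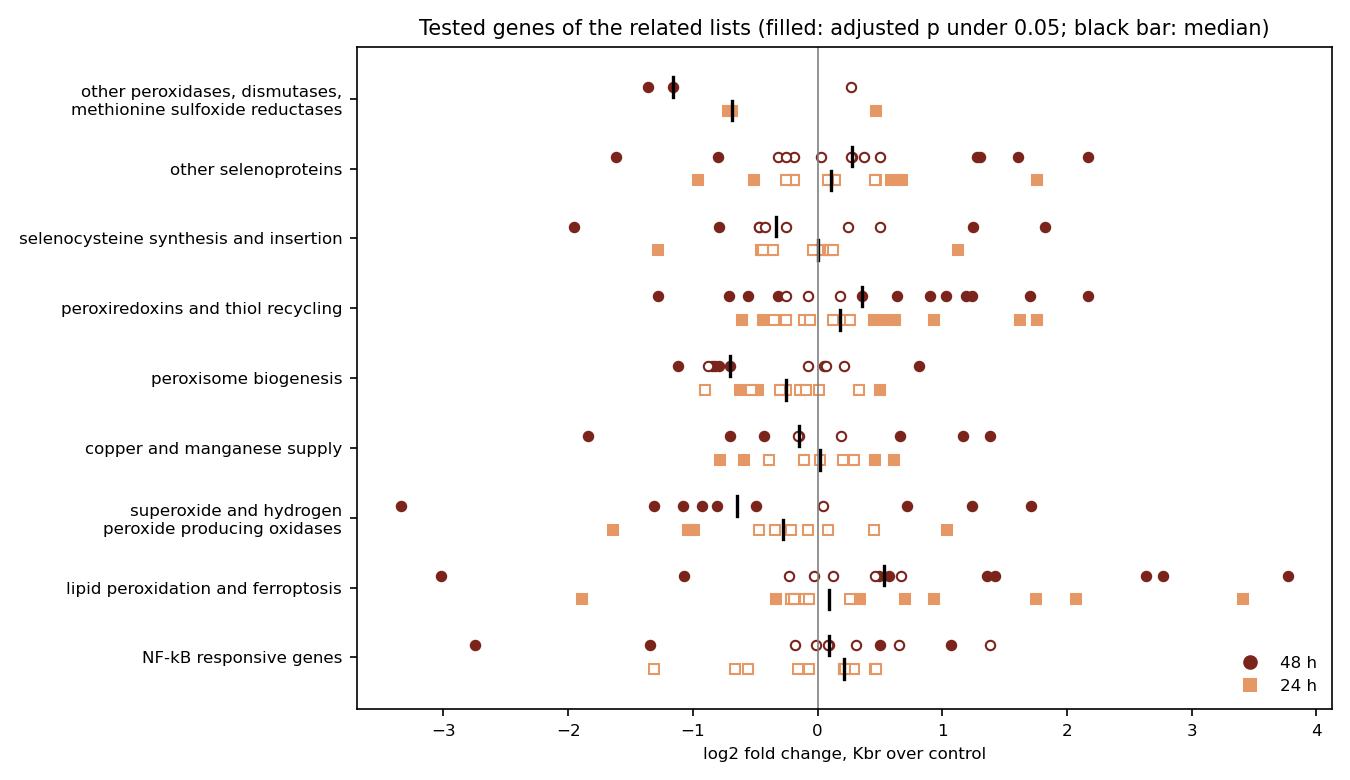
Log2 fold change of Kbr over control (horizontal axis) for each tested gene of the 9 related lists at 48 h (dark circles) and 24 h (light squares), filled where the adjusted p is under 0.05, with a black bar at each list's median. Most lists hold filled symbols on both sides of 0. The medians at 48 h run from -1.16 to 0.53, the latter for lipid peroxidation and ferroptosis. The lowest is that of the other peroxidases, dismutases and methionine sulfoxide reductases, of which only MSRB1, MSRB2 and MSRB3 were tested.

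The genes whose centred profiles over the 12 arrays lay nearest to each enzyme were found by the root mean square difference in log2 units, which describes likeness in these arrays only. Nearest to GPX3 were FXYD2 (0.133), PRKAR2B (0.179) and IGF1R (0.219), with Kbr effects of -1.53, -1.76 and -1.13 at 48 h. Nearest to GPX1 were TSPO (0.0862), CDKN2AIPNL (0.11) and EMP3 (0.123). Nearest to SOD1 were U2AF1 (0.0548), EXOSC7 (0.0634) and LSM1 (0.064), with Kbr effects of 0.90, 0.78 and 0.76 at 48 h. GPX4 lay nearest to PTK2 (0.0527), HDAC1 (0.059) and BCAT2 (0.059), and GPX8 to MRPL40 (0.0753), PSME3IP1 (0.0844) and PCLAF (0.0877). CAT lay nearest to RER1 (0.0917), NTAN1 (0.107) and TMEM19 (0.107). The nearest profiles were farther off for SOD2 (GNPDA2 at 0.158, RAB12 at 0.167 and PCNX4 at 0.17) than for MSRA (FOXJ2 at 0.104, FBXO10 at 0.109 and FKBP2 at 0.116). No gene lay closer to GPX3 than 0.133, while SOD1 had 3 genes within 0.064. Profiles were centred but not scaled, so the distances also depend on how far each enzyme itself varied over the arrays.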

How the data were processed

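Total RNA of 12 HK-2 cultures was read on 1 Affymetrix array each, per the labels' protocols. The authors deposited log2 values from GCRMA, whose version the submitters' processing notes do not state; detection calls and a genome build were not given in the sources used here. GCRMA corrects background from probe sequence and normalises across arrays, which compresses values near background. Of 54675 probe sets 41091 carried 1 symbol, 1801 several, 11721 none and 62 were controls. For each of 19775 genes the brightest single-symbol probe set on average stood for it. Genes above 4 (log2) on 3 or more arrays (10574, leaving out 9201) and, separately, 22215 probe sets were tested.

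Linear models (lmFit, then eBayes, two-sided) from limma 3.58.1 under R 4.3.3 were fitted to all 12 arrays, with 8 residual and 2.87 prior degrees of freedom. Benjamini-Hochberg adjustment ran over all tested genes of a comparison, and called genes are those under 0.05. SE is the moderated standard error. The number of arrays limits the precision. The fit was also run on simulated data in which 200 genes were changed and the arrays varied independently. That setting leaves out the likeness of same-numbered arrays described below, so it does not test the fit under such likeness. Tables and plots used Python 3.11.15, pandas 2.3.3 and matplotlib 3.10.9.

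After group means were removed, arrays with the same replicate number correlated at 0.232 to 0.633 (18 pairs) and others at -0.378 to -0.0042 (36 pairs), so the numbers of the labels pair the arrays and a second fit was blocked on that number, which left 6 residual degrees of freedom.

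The alternatives were a stricter p, other filters, other choices of probe set, median centring, quantile normalization, an offset of 32, a trended robust prior, the block, the compared groups alone, and each array left out in turn. SOD2 read from a probe set shared with SOD2-OT1, and the block and left-out arrays by probe set, were chosen after the data were seen. Members and lists were chosen with earlier results of these data known. Named genes were the 8 enzymes in every comparison, the 2 largest changes of each list at each time, called ones first, and the 3 nearest profiles of each enzyme.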

Additional observations from a re-analysis of the deposited data

Results flagged for a closer look

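The Kbr effect on GPX3 differed between the times: the log2 fold change at 48 h minus that at 24 h was -1.29 (SE 0.21, adjusted p = 0.0125 for this difference in limma), with GPX3 lower in 3 of 3 same-numbered pairs at 48 h and in 2 of 3 at 24 h. Its other probe set gave -1.33 (adjusted p = 0.00908 over all probe sets).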

How the results depend on the processing

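The 8 genes were refitted in 5 comparisons under 952 combinations of gene, comparison and alternative. Of these 883 kept direction and call, 22 gained a call, 35 lost one and 12 changed sign. Many of the combinations could not move the fold change, so the count that stayed the same overstates how far the results were tried. Such were another choice of probe set for GPX1, GPX4 or SOD1, and an array left out of a group not compared. The stricter p used the main fit. At 48 h the calls of GPX1, GPX3, GPX4 and SOD1 held in all 24 alternatives each, and at 24 h that of SOD1 did. Of 1354 refits of the list genes that the naming rule took, 1310 kept direction and call, 4 gained a call, 39 lost one and 1 changed sign (TEK at 48 h, -0.01 without Kbr 48 h replicate 3, range -0.01 to 0.14).

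An adjusted p under 0.01 gave 1830 genes at 24 h in place of 3429, and 0 of the 8 genes for the difference between times and for Kbr cultures over time. At 24 h 2 of the 8 passed (GPX4 joining SOD1) with no filter, with probe sets averaged, with median centring, with quantile normalization, with 32 added and with a trended robust prior. The replicate block gave 4 of the 8 at 24 h, 3 for the difference and 2 for control cultures over time. By probe set the block, an alternative chosen after the data were seen, gave 6 at 24 h, 4 for the difference and 4 for Kbr cultures over time. Over all genes the block called 2202 in place of 426 for control cultures over time, 3571 in place of 1813 for Kbr cultures over time and 2140 in place of 590 for the difference. For Kbr cultures over time 1 of the 8 passed with no filter and 1 with probe sets averaged. With only the groups compared 0 of the 8 passed over time in Kbr and 0 in control cultures. The CAT call at 48 h was lost with no filter (adjusted p = 0.0826), with probe sets averaged (-0.31, 0.0917) and with only the groups compared (0.1).

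With 1 array left out, genes called at 24 h ran from 2255 (without control 24 h replicate 1) to 3880. The 8 genes gave 1 to 2 calls at 24 h and 0 to 3 for Kbr cultures over time. Their probe sets gave 0 to 1 at 24 h, where SOD1 was not called without control 24 h replicate 1, and 0 to 4 for Kbr cultures over time.

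The sign changes were in values that had not passed: GPX8 with probe sets averaged (0.06 at 24 h and 0.03 in control cultures over time), MSRA with quantile normalization at 24 h (0.05), and SOD2 for the difference with quantile normalization (-0.01). Leaving out 1 array turned MSRA at 48 h (-0.03 and -0.04, range -0.04 to 0.10), the SOD2 difference (-0.06, -0.03, -0.01, -0.07 and -0.15, range -0.15 to 0.18) and GPX1 in control cultures over time (0.00, range -0.28 to 0.00). The cause of these changes was not tested. No alternative scaling moved the median over all genes by more than 0.1. The number of arrays, 3 a group, limits the precision. The files used here give no detection calls, so signal over background was judged by the filter alone.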

Other observations

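After each group's mean was removed, several of the 8 genes sat at like heights in arrays of the same replicate number. Replicate 3 lay above its group mean in all 4 groups for GPX1 (mean deviation 0.27 on the log2 scale), CAT (0.24) and SOD2 on 1566342_at (0.16). GPX3 ran the other way, with a mean deviation of -0.12 for replicate 3. The array of Kbr 48 h replicate 3 deviated from its group mean by 0.29 (root mean square over tested genes), and the other 11 arrays by 0.164 to 0.228.

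Markers of epithelium and of kidney segments were read in the same fits. Of all tested genes 59.6% were called at 48 h and 32.4% at 24 h. Of 5 epithelial genes 4 fell and 1 rose at 48 h (100% called), and 2 fell at 24 h (40.0%), which is close to the background. The gene that rose was KRT18 (0.43 at 48 h, adjusted p = 0.026 in limma). E-cadherin CDH1 changed by -2.60 at 48 h (adjusted p = 0.000136 in limma) and by -2.17 at 24 h (0.00173), and keratin KRT19 by -1.95 at 48 h (1.76e-05) and by -1.51 at 24 h (0.000562). Of 4 tested proximal tubule markers 3 fell and 1 rose at both times. PAX8 was the 1 that rose (0.56 at 48 h, 0.00877, and 0.55 at 24 h, 0.0188). The largest falls were those of CDH6 (-2.57 at 48 h, 7e-06, and -1.06 at 24 h, 0.00614) and the cystine transporter subunit SLC3A1 (-2.55 at 48 h, 3.31e-05, and -1.80 at 24 h, 0.00138). Of 3 markers of other nephron segments 2 fell at both times, the water channel AQP3 and the sodium channel subunit SCNN1A (-1.79 at 48 h, 3.74e-06, and -0.62 at 24 h, 0.00835). With all probe sets of SCNN1A averaged its value at 24 h was -0.18 (0.149). AQP3 read 3.79, 3.41 and 3.53 in Kbr cultures at 48 h, against 7.08, 7.25 and 7.17 in control cultures, and 3.77, 3.93 and 3.33 in Kbr cultures at 24 h, against 7.00, 7.25 and 5.11 in control cultures. All its Kbr arrays lay below 4, so it passed the filter through the control arrays alone and no fold is given. The fibroblast markers COL1A1 (-2.66 at 48 h, 3.06e-06, and -2.09 at 24 h, 0.000114) and DCN (-0.99 at 24 h, 0.0011) fell as well.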
